A study of Mus musculus with 2 samples.

Results

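The acute phase proteins described here are 10 secreted proteins whose genes were found in the count matrix by symbol: Orm1, Orm2, Orm3, Saa1, Saa2, Saa3, Saa4, Hp, Hpx and Lcn2, 10 of 32285 genes. Single-cell RNA sequencing from the 3′ ends of transcripts was performed on the liver cells of 2 samples. One label reads Cebp KO and the other Cebp WT, and both name mice given HFCFD, a diet rich in fat, fructose and cholesterol (40% in the labels) that promotes steatohepatitis, for 2 weeks. In the study's knockout, floxed Cebpa alleles were crossed with Cre driven by the albumin promoter, which is active in hepatocytes, the mice were backcrossed to C57BL/6N and only males were used. The sources read do not state age or how many animals made up a library. The matrix joins both libraries under the barcode suffixes 1 and 2, and no label ties a suffix to a genotype. The libraries therefore stayed unassigned, with 1 library each and no replicate, and no test between them was possible.

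The acute phase response is the change in the liver's secreted proteins after infection or tissue injury. Interleukin-6 acts on hepatocytes through STAT3, and interleukin-1 and tumour necrosis factor act through NF-kB, together with factors of the C/EBP family. Haptoglobin and hemopexin, the products of Hp and Hpx, bind free hemoglobin and heme. The orosomucoids are acid glycoproteins of plasma that carry drugs and lipids, the serum amyloid A proteins travel on high-density lipoprotein, and lipocalin-2 withholds iron from bacteria by binding their siderophores.

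The 3 orosomucoid genes lie side by side on chromosome 4 within 21319 bases (GRCm38, GENCODE annotation): Orm1 at chr4:63344560-63348163, Orm3 at chr4:63356162-63359511 and Orm2 at chr4:63362449-63365878, all on the plus strand. The 4 serum amyloid genes share 42316 bases of chromosome 7, with Saa3 at chr7:46711998-46715700, Saa4 at chr7:46727998-46732603 and Saa1 at chr7:46740497-46742980 on the minus strand and Saa2 at chr7:46751790-46754313 on the plus strand. Hpx (chr7:105591613-105600137), Hp (chr8:109575128-109579172) and Lcn2 (chr2:32384633-32388252) are single genes on the minus strand. All 10 are protein coding with 4 to 10 exons, and no annotated gene overlaps any of them. Close copies share sequence at the counted end: of 351 windows of 50 bases in the last 400 bases of the Orm1 transcript, 147 (41.9%) also occurred in Orm2, so the split of reads between Orm1 and Orm2 is uncertain. The same share was 7.41% for Orm2 and Orm3, 6.84% for Saa1 and Saa2, 2.56% for Saa3 within Saa1, and 0 for Saa4 with the other serum amyloid genes.

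RefSeq start regions (250 bases before to 50 after the annotated start, GRCm38.p6) were found for 8 of the members, all but Orm1 and Hp. They are shown for Orm2 and Saa4, whose counts differed most between the libraries among these 8, and for the neighbours Saa1 and Saa2, whose counts hardly differed. Capitals mark matches to TTNNGCAA on either strand, a short form of the C/EBP site.
Orm2, chr4:63362199-63362498, plus strand: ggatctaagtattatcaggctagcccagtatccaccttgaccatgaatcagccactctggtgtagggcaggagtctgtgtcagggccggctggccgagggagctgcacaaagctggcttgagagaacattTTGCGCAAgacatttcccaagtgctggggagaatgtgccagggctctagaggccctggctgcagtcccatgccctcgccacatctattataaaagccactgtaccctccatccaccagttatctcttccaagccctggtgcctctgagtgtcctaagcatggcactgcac
Saa4, chr7:46732554-46732853, minus strand: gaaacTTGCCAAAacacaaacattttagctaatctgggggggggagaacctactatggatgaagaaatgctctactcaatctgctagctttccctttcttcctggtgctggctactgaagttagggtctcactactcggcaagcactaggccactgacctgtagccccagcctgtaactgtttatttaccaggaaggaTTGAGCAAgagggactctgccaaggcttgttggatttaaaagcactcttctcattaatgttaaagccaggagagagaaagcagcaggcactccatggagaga
Saa1, chr7:46742931-46743230, minus strand: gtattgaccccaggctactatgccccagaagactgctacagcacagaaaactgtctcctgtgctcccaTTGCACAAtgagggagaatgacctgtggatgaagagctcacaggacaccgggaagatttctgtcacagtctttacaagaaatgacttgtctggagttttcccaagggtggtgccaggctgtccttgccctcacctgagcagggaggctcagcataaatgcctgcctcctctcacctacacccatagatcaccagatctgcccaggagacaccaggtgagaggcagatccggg
Saa2, chr7:46751583-46751882, plus strand: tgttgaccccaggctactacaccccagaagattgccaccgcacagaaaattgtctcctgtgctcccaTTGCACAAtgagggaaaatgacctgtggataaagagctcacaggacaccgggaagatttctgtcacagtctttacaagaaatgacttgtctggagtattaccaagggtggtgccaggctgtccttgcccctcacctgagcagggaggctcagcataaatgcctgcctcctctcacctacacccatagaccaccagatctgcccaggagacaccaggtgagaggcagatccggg
For the other members, 30 bases around the match are given.
Orm3, chr4:63356026-63356055, plus strand: gagggaacattTTGCACAAgacatttatca
Saa3, chr7:46715757-46715786, minus strand: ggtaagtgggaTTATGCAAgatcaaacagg
Hpx, chr7:105600298-105600327, minus strand: tggctggaaatTTGCTGAAgggggtagggg
Lcn2, chr2:32387937-32387966, minus strand: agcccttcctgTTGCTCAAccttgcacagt
A match was present in 8 of 8 member regions and in 10.8% of 32851 start regions of the same length. It lay 120 bases before the start in Orm2, where it reads the same on both strands, 121 in Orm3, 182 in Saa1, 183 in Saa2, 99 in Saa3, 245 and 52 in Saa4, 200 in Hpx and 216 in Lcn2. The STAT motif TTCNNNGAA was in 0 of 8 member regions and 8.30% of all, and the NF-kB consensus in 0 of 8 and 8.46%, which says only that these letters are not in these windows. The Saa1 and Saa2 regions were 95.3% identical and those of Orm2 and Orm3 86.6%, against 51.3% for Saa1 and Saa3 and 47.3% for Saa1 and Saa4. A match is a description of sequence, and no binding was measured.

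The library with suffix 1 held 17313 barcodes and 60048646 unique molecular identifiers (UMIs, each counting 1 captured transcript), and that with suffix 2 held 15003 barcodes and 52355243 UMIs. The median mitochondrial share of UMIs was 4.07% and 41.3%, so a limit of 25% left 11617 and 6088 barcodes, 34 of them with the same barcode in both libraries. Each droplet was put in a class by marker genes that include no member, and no doublet caller was run. Hepatocytes of at least 5000 UMIs are called deep: there were 702 with suffix 1 and 548 with suffix 2, with medians of 20870.5 and 12071.5 UMIs and all 10 hepatocyte markers detected in the median cell. Droplets of 500 to under 5000 UMIs with the same markers, 8443 and 3281 in number, are called shallow. Cebpa, the targeted gene, was at 1.26 CPM (UMIs per 1000000; 19 UMIs) in deep hepatocytes with suffix 1 and 109 CPM (869 UMIs) with suffix 2, and at 135 and 172 CPM in Kupffer cells or macrophages. No source read states which stretch of the gene was deleted or ties a suffix to a sample, and no genotype was read from these counts.

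Deep hepatocytes with suffix 2 held 2.04 times the acute phase mRNA of those with suffix 1 per UMI, and the members differed widely. The 10 genes together made up 3304 CPM with suffix 1 (95% interval 3275 to 3333) and 6743 CPM with suffix 2 (6686 to 6800). With a mitochondrial limit of 10% the sums were 2061 and 6634 CPM. Orm1 differed most, Orm2 and Saa4 by more than 10-fold, Hp and Hpx by a little under 2-fold, and Saa1 and Saa2 by under 10%. Of the 9 members at 10 CPM in either library, 5 were at least 2-fold higher with suffix 2, against 2.19% of all 7002 genes measured. With suffix 1 at least 2-fold higher there were 0 members, against 2.37% of genes. Of the 5, only Orm1 and Saa4 reached 10 CPM in both libraries. Orm2, Saa3 and Lcn2 were counted only through their suffix 2 level, which with their suffix 1 level already meant a ratio above 2. No weight is therefore put on those 3 calls. The median ratio of the library with suffix 2 to that with suffix 1 was 2.66 over the members and 0.970 over all genes. The value over the members is the ratio of Saa3, at 3.78 and 10.1 CPM, where 1 cell held 40 of its 80 UMIs with suffix 2. Intervals here cover counting error only, and a difference between animals, preparations and genotypes cannot be told apart in 2 unassigned libraries.

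**Figure D1:**
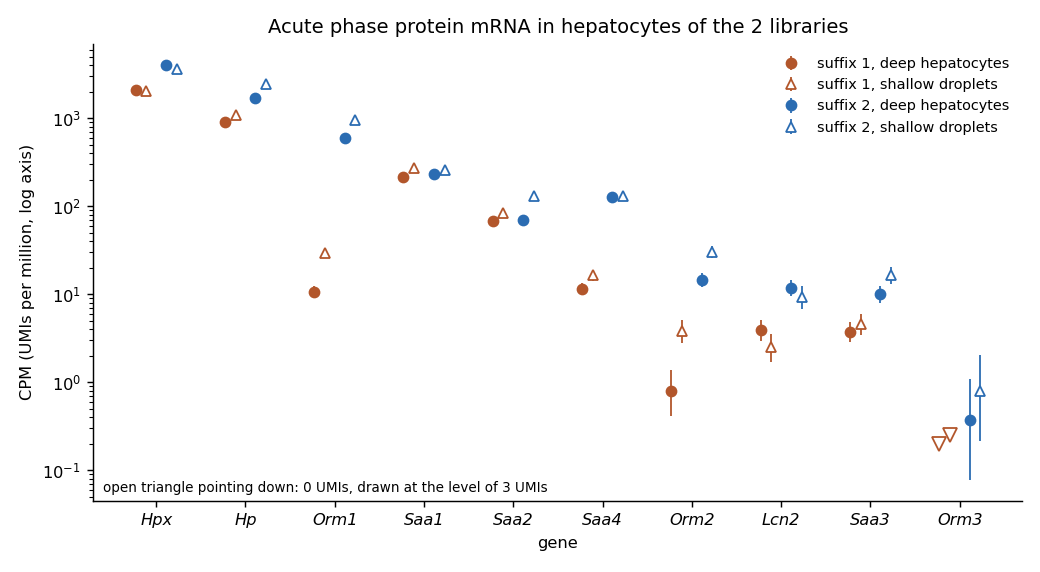
CPM of each member (log axis) in deep hepatocytes (filled circles) and shallow hepatocyte droplets (open triangles) of the libraries with suffix 1 and suffix 2, with exact Poisson 95% intervals for counting error. Orm1 sits at 10.6 CPM with suffix 1 and 591 CPM with suffix 2 in deep hepatocytes, while the Saa1 points of both libraries lie together at 215 and 230 CPM.

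The heme and hemoglobin scavengers gave most of the UMIs of the group. Hpx was at 2074 CPM with suffix 1 (2051 to 2097) and 4005 CPM with suffix 2 (3961 to 4049), a ratio of 1.93 (1.90 to 1.96). With a mitochondrial limit of 10% this ratio was 3.54. Hp was at 916 CPM (901 to 932) and 1682 CPM (1653 to 1711), a ratio of 1.84 (1.79 to 1.88). Both were found in nearly every deep hepatocyte: 97.2% of cells with suffix 1 and 100% with suffix 2 had an Hp UMI, and 99% and 99.8% had an Hpx UMI. Albumin, the most familiar plasma protein of the liver, was at 36130 and 40281 CPM, a ratio of 1.11. Among the 7002 genes ordered by their ratio, Hpx ranked 164 and Hp 185.

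Orm1, which codes for the main orosomucoid, was the member with the widest gap. It was at 10.6 CPM with suffix 1 (9.04 to 12.4, 160 UMIs) and 591 CPM with suffix 2 (574 to 608, 4696 UMIs), a ratio of 55.7 (47.5 to 65.6) and rank 4 of 7002 genes. With suffix 1, 613 of 702 deep cells had no Orm1 UMI, 78 had 1 or 2, and 11 had at least 3 and held 42.5% of the UMIs. With suffix 2, 37 of 548 had none, 96 had 1 or 2, and 415 had at least 3 and held 97.0% of the UMIs, up to 73 in 1 cell. These groups were cut on counts that were not thinned and differ in depth, with medians of 19522, 29888.5 and 34882 UMIs with suffix 1 and 6628, 7531 and 14111 with suffix 2, so the cells without Orm1 were the shallower ones. The few suffix 1 cells with at least 3 Orm1 UMIs had 2 Cebpa UMIs in all and Saa1 at 1744 CPM, against 157 CPM in cells without Orm1. A single cell held 477 of their 633 Saa1 UMIs, and without it the level was 487 CPM. Orm2 was at 0.796 CPM (0.411 to 1.39, 12 UMIs) and 14.7 CPM (12.2 to 17.6, 117 UMIs), a ratio of 18.5 (10.2 to 36.8) and rank 6. Its match near the start is the palindrome printed above, but the sequence it shares with Orm1 leaves the value of Orm2 uncertain. Orm3 had 0 UMIs with suffix 1, which allows up to 0.199 CPM, and 3 UMIs with suffix 2.

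The 4 serum amyloid genes, neighbours in the genome, differed from each other. Saa1, an acute phase apolipoprotein, was at 215 CPM with suffix 1 (208 to 223, 3240 UMIs) and 230 CPM with suffix 2 (220 to 241, 1828 UMIs), a ratio of 1.07 (1.01 to 1.13). Saa2, its close copy, was at 67.9 CPM (1023 UMIs) and 69.1 CPM (549 UMIs), a ratio of 1.02 (0.916 to 1.13), so that the libraries were within counting error of each other. Saa4, the member usually made without a stimulus, was at 11.5 CPM (9.83 to 13.3, 173 UMIs) and 129 CPM (121 to 137, 1026 UMIs), a ratio of 11.2 (9.56 to 13.3). Saa4 thus ranked 11 of 7002 genes, while Saa1 ranked 2153 and Saa2 ranked 2821.

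Saa3, known mostly from cells outside the hepatocyte lineage, and Lcn2 were low in hepatocytes. Saa3 was at 3.78 CPM (57 UMIs) and 10.1 CPM (80 UMIs), a ratio of 2.66 (1.87 to 3.81). Lcn2 was at 3.92 CPM (59 UMIs) and 11.8 CPM (94 UMIs), a ratio of 3.02 (2.16 to 4.26). Both rested on few cells. A single deep hepatocyte with suffix 1 (42805 UMIs, 18.3% mitochondrial) held 24 of the Saa3 UMIs and 38 of the Lcn2 UMIs, and also the most Saa1 (477), Saa2 (243) and Orm1 (14) UMIs of any deep cell in its library. Without the highest cell of each gene, Saa3 was at 2.196 and 5.05 CPM and Lcn2 at 1.40 and 9.48 CPM, all under the 10 CPM needed to be counted. A deep cell with suffix 2 (33491 UMIs) held 40 Saa3 and 19 Lcn2 UMIs. Neither cell had a UMI of the 10 neutrophil markers, and each had 2 UMIs of the Kupffer or macrophage markers.

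Transcripts of other cells and a nuclear RNA were measured in the same deep hepatocytes. The 10 neutrophil markers summed to 12.6 CPM with suffix 1 (1 marker at 0) and 4.15 CPM with suffix 2 (5 at 0), and the 9 Kupffer or macrophage markers to 60.2 and 80.5 CPM, with none at 0. Deep cells under 5% mitochondrial UMIs, 178 and 136 in number, had the nuclear RNA Malat1 at 16631 and 6146 CPM, against 2659 and 2898 CPM in the other deep cells. Leaving those cells out gave the lowest ratios between libraries of all alternatives for Hp, at 1.73, and for Saa2, at 0.881. Over all alternatives the ratio ran from 41.7 to 92.0 for Orm1 and from 8.70 to 12.04 for Saa4. Saa1 ranged from 0.863 to 2.28 and Saa2 from 0.881 to 4.17, and their upper ends came from a mitochondrial limit of 10%.

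Shallow droplets held the members in sum at levels near those of deep cells, but Orm1 and Orm2 were higher in them in both libraries. Orm2 was at 3.83 and 30.6 CPM, against 0.796 and 14.7 CPM in deep cells. The summed level was 3534 CPM with suffix 1 (3501 to 3568) and 7616 CPM with suffix 2 (7541 to 7693). Orm1 was at 29.7 and 951 CPM, a ratio of 32.0 (28.7 to 35.7), and Saa4 at 16.6 and 131 CPM, a ratio of 7.91 (6.74 to 9.32). Hp was at 1085 and 2419 CPM and Hpx at 2034 and 3667 CPM. Saa1 was at 273 and 261 CPM, a ratio of 0.955, and Saa2 at 84.2 and 130 CPM, a ratio of 1.55. Of 6 members measured with suffix 1, only Orm1 was at least 2-fold higher in shallow than in deep cells, where 3.18% of genes were. With suffix 2 only Orm2 of 9 was, where 1.48% of genes were.

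Within hepatocytes the levels of Hp, Hpx, Saa1 and albumin did not fall steadily with depth, while that of Orm1 mostly fell. With suffix 1, Hp was at 1452 CPM in droplets of 500 to under 1000 UMIs, 442 CPM at 5000 to under 10000 and 1017 CPM at 20000 and more. Hpx ran from 2638 through 933 to 2294 CPM, Saa1 from 372 through 121 to 235 CPM, and albumin from 42731 through 17233 to 38858 CPM in the same bins. The bin at 5000 UMIs, low for all of these, had a median mitochondrial share of 1.11%, against 1.92% in the shallowest bin and 16.99% in the deepest. With suffix 2, Hp ran from 2648 through 1539 to 1850 CPM and albumin from 41787 through 32347 to 43750 CPM, at 3.79%, 8.63% and 16.5% mitochondrial UMIs. The mitochondrial share had no common order with these levels. Orm1, in the same 3 bins, was at 44.0, 12.2 and 10.9 CPM with suffix 1 and at 1089, 604 and 569 CPM with suffix 2. With suffix 1 it was lowest, at 7.85 CPM, in the bin at 10000 UMIs. In every one of the 6 bins Orm1, Saa4, Hp and Hpx were higher with suffix 2.

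**Figure D2:**
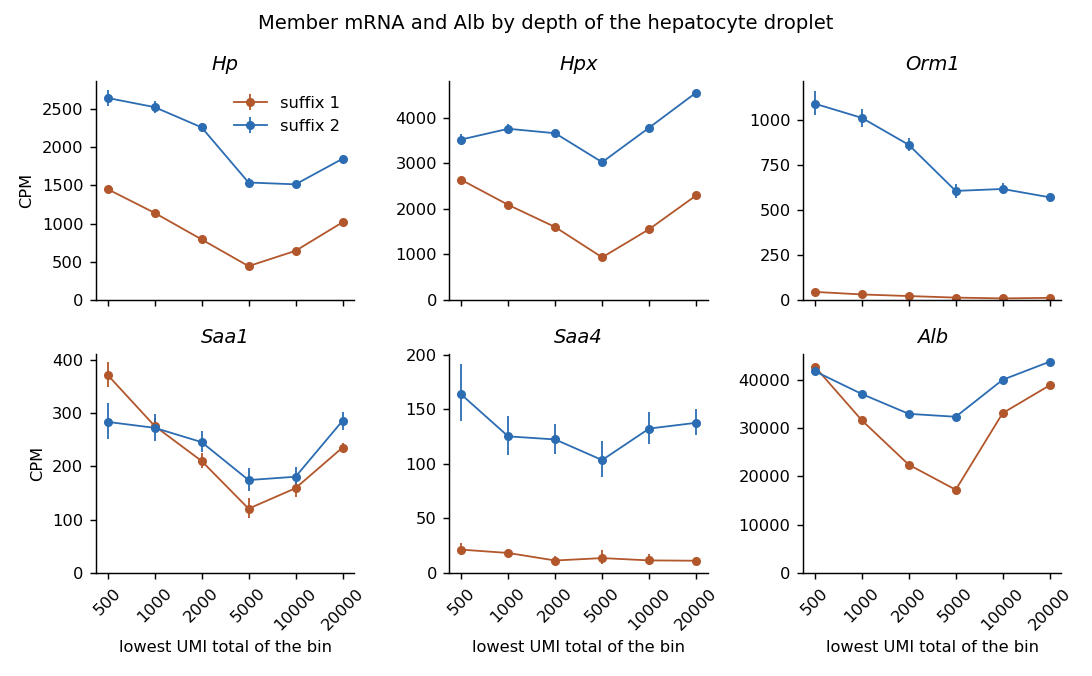
CPM of 5 members and of Alb (linear axes from 0) in hepatocyte droplets of 6 depth bins, labelled by the lowest UMI total of the bin, with exact Poisson 95% intervals, for both libraries. Orm1 lies between 569 and 1089 CPM in every bin with suffix 2 and at 44.0 CPM or less with suffix 1, and Hp, Hpx, Saa1 and Alb with suffix 1 are lowest in the bin at 5000 UMIs.

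Droplets of cells that do not make plasma proteins also carried the hepatocyte transcripts. T or NK cells (643 and 587) had albumin at 10091 and 12194 CPM, Hpx at 616 and 1036 CPM, Hp at 305 and 626 CPM and Orm1 at 6.93 and 229 CPM. The Orm1 ratio between the libraries, 33.0 in T or NK cells (21.8 to 52.5), was thus near that of shallow hepatocyte droplets. Set against albumin, Orm1 gave 0.687 UMIs per 1000 Alb UMIs in T or NK cells and 0.294 in deep hepatocytes with suffix 1, and 18.8 and 14.7 with suffix 2. Per Alb UMI, Hpx was between 0.600 and 1.31 times its T or NK value in all classes, and Hp between 0.557 and 2.06 times. The part of free RNA in these levels was not tested. After thinning every cell to 5000 UMIs, Orm1 was found in 4.99% of deep hepatocytes (3.50% to 6.87%) and 2.54% of T or NK cells (0.939% to 5.45%) with suffix 1, where the intervals overlap. With suffix 2 it was found in 83.6% (80.2% to 86.6%) and 50.7% (42.4% to 58.9%). For Saa1 the shares were 39.0% against 25.8% with suffix 1 and 40.3% against 20.4% with suffix 2, and for Saa4 5.84% against 2.97% and 47.8% against 15.8%. Saa3 with suffix 2, at 2.37% against 2.63%, lay at the T or NK share. Thinning left out 407 and 435 T or NK cells.

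Lcn2 had its highest level in neutrophils. These cells store lipocalin-2 in their granules, and the gate that named them did not use Lcn2. The gene was at 618 CPM in 128 neutrophils with suffix 1 (544 to 699, 251 UMIs) and 457 CPM in 48 with suffix 2 (342 to 598, 53 UMIs), against 3.92 and 11.8 CPM in deep hepatocytes. After thinning to 1000 UMIs, 26.0% of neutrophils with suffix 1 (18.6% to 34.5%) and 28.3% with suffix 2 (15.99% to 43.5%) had an Lcn2 UMI, against 0% of 643 T or NK cells, which allows up to 0.467%, and 0.512% of 586. Within the neutrophils the gene was uneven: 47 of 128 and 17 of 48 cells had any, and the highest cell held 34 of 251 and 29 of 53 UMIs. Without those cells the levels were 541 and 216 CPM, and a gate of 4 markers gave 614 and 1866 CPM. The 12 suffix 1 neutrophils with a UMI of Ngp, Camp or Ltf, genes of specific granule proteins whose mRNA marks immature neutrophils, held 57.4% of the Lcn2 UMIs, and the 1 such cell with suffix 2 held 54.7%, a split made after the values were seen. Neutrophils held 65.4% of all Lcn2 UMIs in kept cells with suffix 1 and 12.5% with suffix 2. In the latter, 178 UMIs lay in 1 droplet that passed the gates of several classes and also had a UMI of Ngp, Camp or Ltf. Deep hepatocytes held 15.4% and 22.2% and shallow ones 7.81% and 11.1%. With suffix 2 the many hepatocytes (94 deep and 47 shallow UMIs) together held more than the 48 neutrophils (53 UMIs), but less than the droplet of 178 UMIs. Cholangiocytes had 28.0 CPM (8 UMIs) and 65.9 CPM (10 UMIs).

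Haptoglobin mRNA was also higher, for the albumin mRNA present, in neutrophils and monocytes than in lymphocytes. Per 1000 Alb UMIs, Hp stood at 62.3 in neutrophils with suffix 1 (56.9 to 68.0) and 77.7 with suffix 2 (66.4 to 90.3), against 30.2 and 51.3 in T or NK cells and 31.3 and 50.8 in B cells. Monocytes, 47 and 54 cells, had 44.3 (39.4 to 49.7) and 67.7 (60.9 to 75.1). In the monocytes 3 cells held 136 of 291 Hp UMIs with suffix 1 and 90 of 358 with suffix 2, but also much of the albumin mRNA, and without those cells the values were 48.5 (41.2 to 56.8) and 74.8 (66.1 to 84.3). Shallow hepatocyte droplets, at 35.3 (34.7 to 35.9) and 67.3 (66.1 to 68.5), and stellate cells, at 37.2 (27.98 to 48.6) and 63.6 (53.9 to 74.6), also stood above T or NK cells, as did 11 erythroid cells with suffix 1, at 46.9 (29.8 to 70.4). With suffix 1 the intervals of the stellate and erythroid cells overlapped that of T or NK cells (28.4 to 32.1). Other myeloid cells were not above the lymphocytes, with 20.8 and 30.2 in Kupffer cells or macrophages and 26.1 and 50.9 in conventional dendritic cells. Hpx per Alb UMI was 67.1 and 92.8 in neutrophils and 61.0 and 84.9 in T or NK cells, with overlapping intervals in both libraries. In CPM, Hp was at 1209 and 1458 in neutrophils and 305 and 626 in T or NK cells.

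Saa3 appeared in a few macrophages. It was at 11.9 CPM in 317 Kupffer cells or macrophages with suffix 1 (8.11 to 16.7, 32 UMIs) and 56.9 CPM in 505 with suffix 2 (49.3 to 65.3, 202 UMIs). Only 7 and 17 of these cells had a UMI, and 1 cell held 22 of 32 and another 126 of 202. Without the highest cell the levels were 3.72 and 21.5 CPM. The 3 highest cells held 28 and 187 UMIs. Without them Saa3 gave 0.161 UMIs per 1000 Alb UMIs with suffix 1 (0.044 to 0.413) and 0.330 with suffix 2 (0.184 to 0.544). T or NK cells with suffix 2 had 0.316. Kupffer cells or macrophages, all cells included, held 16.9% and 48.9% of the Saa3 UMIs in kept cells. Neutrophils had 41.9 CPM (17 UMIs) with suffix 1 and 0 UMIs with suffix 2.

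**Figure D3:**
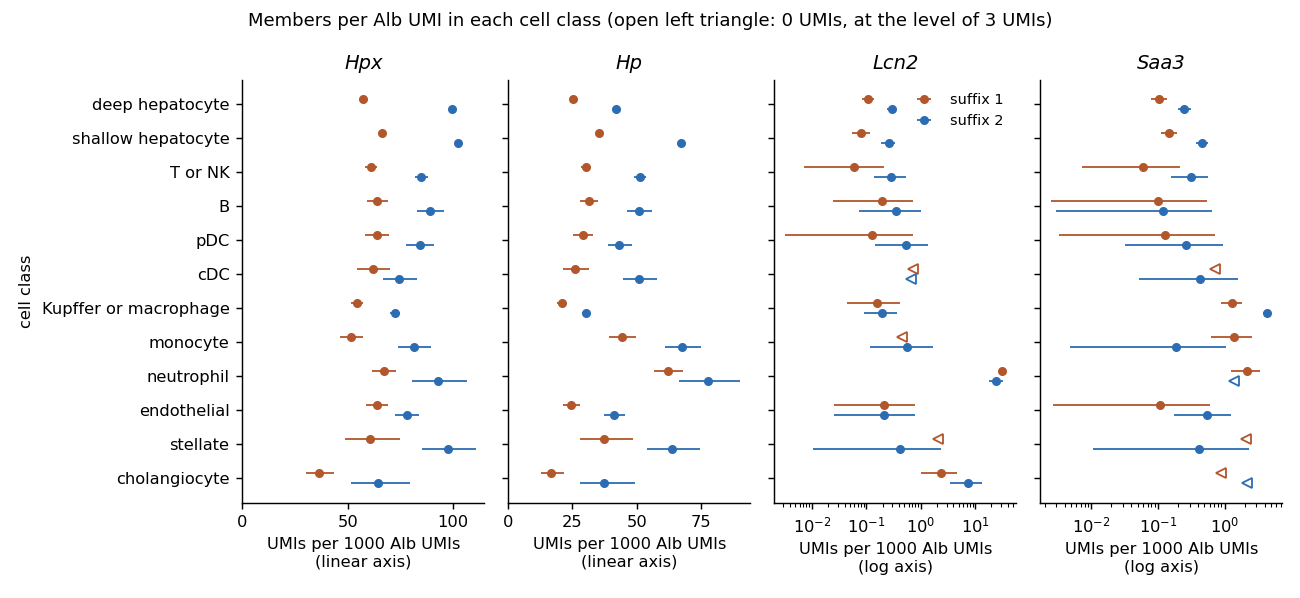
UMIs of Hpx, Hp (linear axes from 0), Lcn2 and Saa3 (log axes) per 1000 Alb UMIs in 12 cell classes of both libraries, with 95% intervals for counting error. Hpx keeps to a narrow range within each library. Hp is highest in neutrophils, at 62.3 and 77.7, where with suffix 2 its interval overlaps those of monocytes, stellate cells and shallow hepatocyte droplets. Lcn2 stands apart in neutrophils of both libraries. The high Saa3 point of Kupffer cells or macrophages with suffix 2 rests on 3 cells, and without them the value is 0.330, near the 0.316 of T or NK cells.

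Among deep hepatocytes, Hp and Hpx were spread over the cells and Saa1 and Saa2 were not. In a further thinning to 5000 UMIs, Hp had a median of 3 UMIs a cell with suffix 1 and 7 with suffix 2, and Hpx 6 and 18. The 10% of cells with the most UMIs of a gene held 27.9% and 22.3% of Hpx, 36.0% and 23.8% of Hp, 62.9% and 59.5% of Saa1, and 82.6% and 94.7% of Saa2. With suffix 2 they held 26.1% of Orm1 and 42.3% of Saa4. The highest cells had 55 and 33 Saa1 UMIs, while the median was 0 in both libraries. A gene with few UMIs a cell is held by few cells by counting alone, so Saa4 and Saa1, with means of 0.630 and 1.02 UMIs a cell with suffix 2, are the closer pair to set side by side. Their highest cells had 5 and 33 UMIs.

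**Figure D4:**
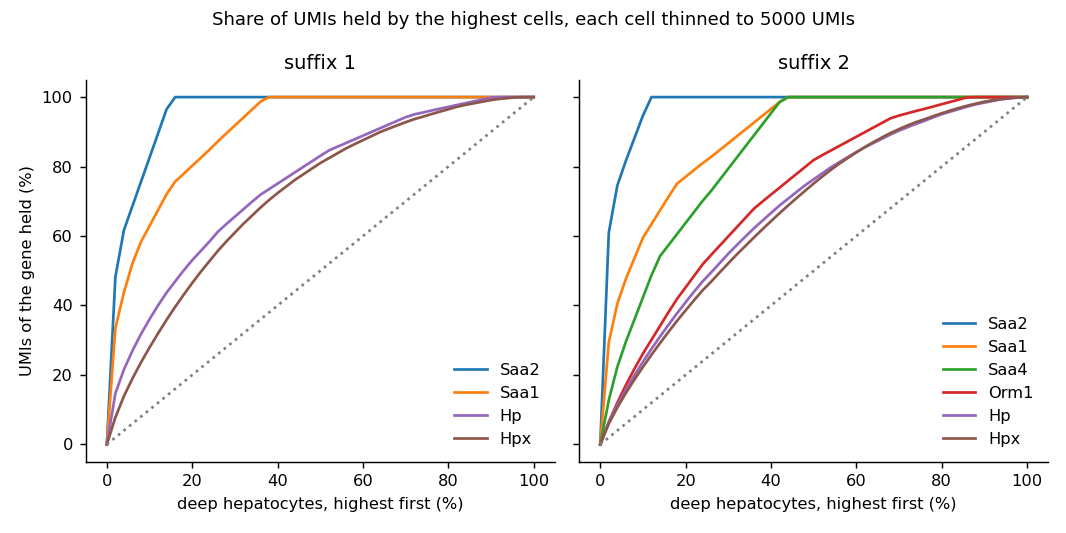
Percent of a gene's UMIs (vertical axis) held by the given percent of deep hepatocytes, highest first (horizontal axis), each cell thinned to 5000 UMIs, with a dotted line for even spread, by library. The Saa2 and Saa1 curves rise fastest, and the highest 10% of cells hold 82.6% and 62.9% of their UMIs with suffix 1 and 94.7% and 59.5% with suffix 2.

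Hp and Hpx tended to be high in the same cells. Spearman's rho over cells was 0.431 with suffix 1 (702 cells) and 0.625 with suffix 2 (548 cells), given as a description, since the cells of a library share its free RNA and its range of RNA quality. Saa1 and Saa2 had 0.333 and 0.289. With suffix 2, Hp had 0.413 with Saa1, 0.364 with Orm1 and 0.032 with Saa4, and Orm1 had 0.326 with Saa1 and 0.026 with Saa4. Saa4 had a mean of only 0.630 UMIs a cell, and nothing is read from its low rho. With suffix 1, Hp had 0.1004 with Saa1. The genes most like the summed members over cells, ranked by the lower rho of the libraries over 2216 genes, were Apoe (0.712 and 0.698), Vtn (0.653 and 0.678), Ambp (0.665 and 0.612), Fgb (0.607 and 0.607) and Trf (0.575 and 0.619), all of them secreted by hepatocytes. The median gene had -0.053 and -0.008. Among cells of at least 5% mitochondrial UMIs the first 5 were Apoe, Vtn, Ambp, Apoa1 and Alb.

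Deep hepatocytes rich in Saa1 and Saa2 were set against the rest to see the other members in them. Cells with at least 5 Saa1 and Saa2 UMIs of 5000, a limit set after the values were seen, numbered 30 of 702 with suffix 1 (4.27%) and 28 of 548 with suffix 2 (5.11%). By their selection they held much of the Saa1 (44.3% and 43.5%) and Saa2 UMIs (54.2% and 70.4%). There were 12 and 8 cells just at the limit and 19 and 17 just under it. Saa3, which the limit did not use, was at 73.3 CPM in these cells with suffix 1 (36.6 to 131, 11 UMIs in 3 cells) and 0 UMIs in the other 672, and at 85.7 CPM (44.3 to 150, 12 UMIs in 3 cells) and 2.69 CPM with suffix 2. Single cells held 7 of the 11 and 6 of the 12 Saa3 UMIs, and without them the levels were 27.6 and 44.4 CPM. Lcn2 was at 78.6 CPM with suffix 2 (39.2 to 141, 11 UMIs in 6 cells) against 6.54 CPM in the rest, and at 51.9 CPM without its highest cell. With suffix 1 its 7 UMIs lay in 1 of these cells.

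Hp and Hpx went the same way by smaller steps. Hp was at 1227 CPM in the Saa-rich cells with suffix 1 (1056 to 1417) and 728 in the others (699 to 757), and at 2693 (2428 to 2979) and 1589 (1541 to 1638) with suffix 2, or 1.69 times as much in each. Hpx was 1.45 and 1.39 times as high. Orm1 was at 1057 CPM (894 to 1242) and 580 CPM (551 to 610) with suffix 2, and with suffix 1 at 73.3 CPM from 11 UMIs and 9.23 CPM. Fibrinogen beta (Fgb) was 1.16 and 1.27 times as high, C-reactive protein (Crp) 1.39 and 1.04 times, and albumin 1.06 and 1.11 times. Saa4 was at 150 CPM (92.9 to 229) and 125 CPM (111 to 139) with suffix 2, where the intervals overlap. The Saa-rich cells had 0 UMIs of the 10 neutrophil markers in both libraries, and their Kupffer or macrophage markers summed to 80.0 and 78.6 CPM, against 70.2 and 73.8 CPM in the others. Among cells of at least 5% mitochondrial UMIs, a further draw gave 24 and 21 Saa-rich cells, with Hp 1.62 and 1.92 times as high, Saa3 at 50 and 105 CPM and Lcn2 at 58.3 and 95.2 CPM. Without the highest cell, Saa3 was then at 8.70 and 10 CPM and Lcn2 at 8.70 and 70 CPM, against 1.60 and 3.58 CPM of Saa3 and 0.8 and 5.63 CPM of Lcn2 in the other cells. There were only 2 Orm1 UMIs and 2 UMIs of the neutrophil markers with suffix 1.

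**Figure D5:**
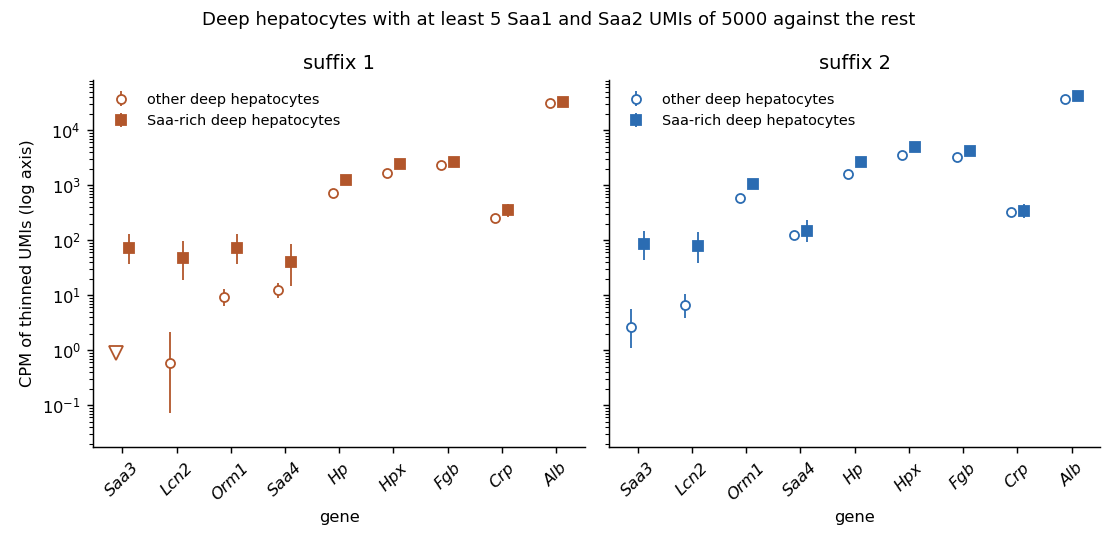
CPM of thinned UMIs (log axis) in Saa-rich deep hepatocytes (filled squares; 30 and 28 cells) and the other deep hepatocytes (open circles; 672 and 520 cells) for 6 members and Fgb, Crp and Alb, with exact Poisson 95% intervals, by library; the open triangle marks 0 UMIs at the level of 3 UMIs. Saa3 and Lcn2 lie furthest above the other cells, and Alb nearly level with them.

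Hepatocytes differ along the lobule, from the portal vein, where Cyp2f2 is high, to the central vein, where Cyp2e1 and Glul are. Deep cells were split into 3 groups of like size by the Cyp2f2 share of Cyp2f2 and Cyp2e1 UMIs. From the lowest share to the highest, Hpx was at 929, 2248 and 2001 CPM with suffix 1 and at 2472, 4062 and 4385 CPM with suffix 2, and Hp at 566, 810 and 878 CPM and at 1436, 1851 and 1665 CPM. Albumin followed the order of Hpx over the groups in both libraries, at 18096, 38428 and 37144 CPM and at 25224, 41208 and 45918 CPM. Among cells of at least 5% mitochondrial UMIs, Hpx was at 1539, 2413 and 2297 CPM and at 3095, 3842 and 4381 CPM. Hp was at 788, 872 and 894 CPM with suffix 1 and, out of order, at 1515, 1371 and 1885 CPM with suffix 2 in those cells. Orm1 was at 16.5, 15.6 and 4.33 CPM with suffix 1, from only 19, 18 and 5 UMIs, and at 580, 690 and 540 CPM with suffix 2, where the middle group was highest. In cells of at least 5% mitochondrial UMIs it was at 13.9, 6.94 and 5.75 CPM and at 564, 508 and 536 CPM. Cells with at least 3 UMIs of the Glul group, 11 and 14 in number, had Hpx at 1127 and 1129 CPM, against 1718 and 3693 CPM in the others, and albumin at 10636 and 15271 CPM, against 31265 and 37889 CPM. A single cell held 35 of their 62 Hpx UMIs with suffix 1, and without it the level was 540 CPM. For Saa1 a single cell held 55 of their 65 UMIs with suffix 1 and 11 of 12 with suffix 2, so no level is read from them. With the limit of 5% mitochondrial UMIs only 2 and 5 such cells were left, and Hpx in them was higher with suffix 1 (3400 against 2067 CPM) and lower with suffix 2 (840 against 3803 CPM).

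The pathway around the members was described with lists of genes at 10 CPM or more in deep hepatocytes of either library. Over all genes, 2.19% were at least 2-fold higher with suffix 2 and 2.37% with suffix 1, and list counts of 0 or 1 are near those shares. Of 12 signal genes, none was measured in hepatocytes. Il1b was highest in neutrophils, at 2108 and 2174 CPM, Il1a in endothelial cells, at 101.5 and 67.3 CPM, and Il6 reached 2 UMIs in monocytes with suffix 1 and 10 UMIs in Kupffer cells or macrophages with suffix 2. Of 17 receptors and transducers, 10 were measured and 0 were past 2-fold in either direction, with a median ratio of 0.882. Il1rap, a subunit of the interleukin-1 receptor, was at 118 and 126 CPM, the kinase Jak1 at 118 and 80.0, the leukemia inhibitory factor receptor Lifr at 77.2 and 45.04, and the interleukin-6 receptor Il6ra at 60.8 and 56.4 CPM. Of 11 transcription factors, 9 were measured and only Cebpa was past 2-fold, at 86.7 times as much with suffix 2 as with suffix 1, with a median of 0.987 over the list. Hnf4a was at 210 and 207 CPM, Cebpb at 183 and 148, the glucocorticoid receptor Nr3c1 at 84.0 and 71.6, and Stat3 at 59.7 and 51.8 CPM.

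Further acute phase proteins were counted in the same way. Of 23 further genes whose products rise in the response, 21 were measured, 1 was at least 2-fold higher with suffix 2 (2.19% of all genes) and 3 with suffix 1 (2.37%), with a median ratio of 1.17. The fibrinogen chains Fgb (2648 and 3388 CPM), Fgg (1969 and 2552 CPM) and Fga (1950 and 2057 CPM) and the iron hormone Hamp (1784 and 1433 CPM) were the most abundant by the mean of both libraries. Lbp, which presents lipopolysaccharide to its receptors, was higher with suffix 2 (17.1 and 52.0 CPM). The metallothioneins Mt1 (1278 and 265 CPM) and Mt2 (246 and 31.2 CPM) and the metalloreductase Steap4 (75.1 and 32.6 CPM) were higher with suffix 1. All 10 genes whose products fall in the response were measured and 0 were past 2-fold, with a median of 1.18, among them transthyretin (Ttr, 11046 and 13789 CPM), transferrin (Trf, 5486 and 8125 CPM) and Apoa1 (5683 and 5346 CPM). Of 11 receptors and partners of the members, 6 were measured and only Cd36, a scavenger receptor, was past 2-fold, at 4.64 and 22.1 CPM. The ferritin chains Fth1 (6175 and 7012 CPM) and Ftl1 (2975 and 3055 CPM), the hemopexin receptor Lrp1 (147 and 122 CPM) and the lipoprotein receptor Scarb1 (67.0 and 64.5 CPM) were the most abundant in both libraries. Cd163, the macrophage receptor for haptoglobin bound to hemoglobin, was highest in Kupffer cells or macrophages, at 483 and 372 CPM.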

How the data were processed

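Cells of perfused and digested livers were purified on 35% Percoll and captured with 10x Genomics 3′ v3.1 chemistry. The authors deposited 1 joined matrix of UMI counts per gene and barcode, raw and not normalized. The submitters' processing notes name Cell Ranger 7.1.0, bcl2fastq 2.20.0, STAR 2.7.2a and the genome build mm10. The sources used here do not say which annotation was used, whether intronic reads were counted or whether depth was equalised. How the authors split reads between near-identical genes bears on Orm1 and Orm2.

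Barcodes with at least 500 UMIs, at least 200 genes and at most 25% mitochondrial UMIs were kept. A droplet passed a marker list with at least 3 markers detected that held at least 0.1% of its UMIs. It took the class with the largest share of its markers detected where the next list had at most 0.5 of that share, and was left out as mixed otherwise. Hepatocytes had at least 3 of their own markers and, of each other list, under 2 markers or under 0.1% of UMIs. Of the neutrophils, 1 and 3 cells lay at the gate and 13 and 2 just under it, and of the Kupffer cells or macrophages 34 and 23, and 113 and 84, and of the monocytes 13 and 10, and 258 and 201. For each class, the counts of its cells were added up and divided by all their UMIs (CPM). Exact Poisson 95% intervals were given for CPM and exact binomial (Clopper-Pearson) 95% intervals for shares, and a 0 was taken to allow 3 UMIs. Both cover counting error only. No test was run, since cells of 1 library are not replicates. Shares were compared after random thinning. Ratios were described against all genes that reached 10 CPM in a library. Python 3.11.15 with numpy 2.4.6, scipy 1.17.1 and pandas 2.3.3 was used, and the scripts were tested on simulated data. Gene positions and start regions came from GENCODE on GRCm38 and RefSeq on GRCm38.p6, and all 10 gene IDs were found.

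Named genes are the members, the 4 genes of each pathway list with the highest CPM in deep hepatocytes, list genes past 2-fold, the class with the highest level of a signal or receptor, and the 5 genes most like the summed members. The members, lists and alternatives were chosen with earlier results of these data known. After the values were seen, droplets with at least 5% of UMIs from 4 hemoglobin genes (254 and 105) were moved out of the hepatocytes. The splits by 5% mitochondrial UMIs, by serum amyloid UMIs, by Orm1 UMIs and by Ngp, Camp or Ltf were also added then. So were the Hp and Saa3 values without the 3 highest cells. Droplets above the mitochondrial limit (5675 and 8886), those that passed several classes (201 and 213) and those that passed none (336 and 189) entered no class.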

Additional observations from a re-analysis of the deposited data

Results flagged for a closer look

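The barcodes above the mitochondrial limit, which the report's comparisons leave out, also held the members. In these 5675 droplets with suffix 1 the 10 genes summed to 2804 CPM (2780 to 2828), and in the 8886 with suffix 2 to 5073 CPM (5046 to 5100). They were listed because a signal in data outside the main measurement lay above what a count of 0 allows. Both sums were below those of the deep hepatocytes of the same library, but each is divided by totals that include mitochondrial UMIs. The median mitochondrial share was 47.1% with suffix 1 and 52.1% with suffix 2 in these droplets, against 14.7% and 14.95% in deep hepatocytes. These droplets were also put in no class. Whether the order holds without mitochondrial UMIs was not tested, so nothing is read from it.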

How the results depend on the processing

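Intervals cover counting error alone, and with 1 library each the spread between animals is unknown. No paired analysis was possible because neither library could be tied to a sample and no test was run. Depth limits Orm2, Orm3, Saa3 and Lcn2 most, which had 0 to 117 UMIs in deep hepatocytes.

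The summed level in deep hepatocytes, 3304 and 6743 CPM, stayed higher with suffix 2 under every alternative run. It was 2061 and 6634 CPM with a mitochondrial limit of 10%, 3262 and 6649 with 50%, and 3020 and 5681 with none. It was 3197 with suffix 1 where deep meant at least 3000 UMIs, 3482 and 7038 at 10000 UMIs, and 3350 and 6930 with a gate of 2 markers. The mean over cells gave 2715 and 6261, totals without mitochondrial UMIs 3907 and 7857, subtraction of the T, NK and B cell level 3052 and 6067, leaving out the 5% deepest cells 3129 and 6595, and leaving out the highest cell 3233 and 6683. Added after seeing the data, keeping hemoglobin-rich droplets gave 3226 and 6631, and leaving out those under 5% mitochondrial UMIs gave 3504 with suffix 1. In shallow droplets, 3534 and 7616 CPM became 7799 with suffix 2 at the limit of 10%, 3666 and 7052 at 50%, 3472 and 6028 with none, 3353 with suffix 1 at 2 markers, 3655 and 8068 without mitochondrial UMIs, and 3477 and 7443 with hemoglobin-rich droplets.

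The count of 5 members at least 2-fold higher with suffix 2 ran from 3 to 6. It was 3 with no mitochondrial limit and 3 without the highest cell of each gene, and under both settings Saa3 and Lcn2 fell under 10 CPM in both libraries. It was 6 with a mitochondrial limit of 10%, where Hpx (3.54), Saa1 (2.28) and Saa2 (4.17) passed 2-fold and Saa3 and Lcn2 again fell under 10 CPM. Of 125 ratios between libraries under alternatives, 119 stayed on their side of 2-fold, 5 passed it, and 1, Saa3 with no mitochondrial limit at 1.76, fell short. Of the ratios past 2-fold, 0 turned to the other library, while Saa1 (1.07) and Saa2 (1.02) fell under 1 in some settings, to 0.863 and 0.881 at the lowest. The ratio ran from 1.76 to 21.4 for Saa3, 2.698 to 14.3 for Lcn2, 11.4 to 30.4 for Orm2, 1.73 to 2.14 for Hp and 1.69 to 3.54 for Hpx. Lcn2 in neutrophils, 618 and 457 CPM, was 1866 with suffix 2 at a gate of 4 markers, where the cause was not tested, and 541 and 216 without the highest cell. Leaving out cells with more albumin per UMI than the lowest 10% of deep hepatocytes removed 124 of 128 and 44 of 48 neutrophils and gave no value.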
